A study of Mus musculus with 15 samples.

Results

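The livers of mice fed a high-fat diet containing decaffeinated coffee were compared with the livers of mice fed a normal diet, and the high-fat diet without coffee was left out. The members were the 3 arrays labelled as the decaffeinated coffee group (HFDC) and the 3 labelled as the normal diet group (ND), 6 of 15 arrays and 2 of 5 groups in the series. All animals were male C57BL/6J mice, 7 weeks old at the start and fed for 9 weeks, and each liver was frozen and hybridised to its own Affymetrix mouse genome array. The ND group received D12450B, with 10 kcal% fat. The HFDC group received a high-fat diet (60 kcal% fat) to which 2% decaffeinated freeze-dried coffee had been added. A caffeinated coffee group (HFCC) and a group given caffeinated coffee from unroasted green beans (HFGC), both on the high-fat diet with 2% coffee, served for comparison. Fat, carbohydrate and coffee all differ between HFDC and ND, so the share of each in a difference cannot be told apart. Mice of 1 strain and sex and 1 dose of each coffee were examined.

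The liver takes up dietary fat, makes fat from carbohydrate, exports both in lipoproteins, and clears plant compounds such as those of coffee through oxidation, conjugation and efflux. Coffee carries chlorogenic acids, diterpenes and roasting products besides caffeine, and decaffeination removes mainly the caffeine. Several transcription factors link these duties to diet: CAR and PXR, nuclear receptors that raise drug-metabolising enzymes, SREBP-2, which drives cholesterol synthesis when sterols in the endoplasmic reticulum (ER) are scarce, and SREBP-1c and ChREBP, which drive lipogenesis from carbohydrate.

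The median intensity of the 6 arrays lay between 48.76 and 49.95, and no pair of arrays in the fit was identical (0 identical arrays). The 3 prime minus 5 prime log2 difference of the Gapdh and Actb control probe sets, a sign of RNA integrity, was 0.927 ± 0.114 in HFDC and 0.875 ± 0.063 in ND (SD, n = 3 each; two-sided exact permutation p = 0.5, where 0.1 is the smallest value 3 against 3 can give). Hepatocyte markers, among them albumin and apolipoprotein genes, had a summed intensity of 143190 to 152706 in HFDC and 143755 to 150149 in ND, with 0 of 9 measured members called. Markers of Kupffer cells summed to 8604 to 9909 against 5828 to 9331, those of endothelium to 3251 to 3381 against 2520 to 3667, and those of T, NK and B cells to 351 to 401 against 325 to 365. Cholangiocyte, adipocyte, erythroid and pancreas markers were low, between 87 and 1040 in all 6 arrays, and none of their members was called. RMA values do not reach 0, so no marker could be listed at 0. In whole liver, fewer cells of a type and less RNA per cell cannot be told apart.

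Of 18193 genes tested, 28 were higher in HFDC than in ND (0.154% of genes) and 17 were lower (0.0934%), by limma at a Benjamini-Hochberg adjusted p under 0.05. Their log2 differences ranged from 0.35 to 2.92 upwards and from -0.38 to -1.40 downwards, and 27 of the 45 differed by at least 1.5-fold. The arrays of HFDC and ND did not overlap in any of the 45. Among all genes, the 3 HFDC arrays lay above the 3 ND arrays in 1857 (10.2%) and below them in 1427 (7.84%), and an unadjusted p under 0.05 was reached by 1505 genes higher (8.27%) and 1129 lower (6.21%). The median log2 difference over all genes was 0.01, with a median SE of 0.09. ND was also set against the other coffee groups in the same fit. HFCC had 259 genes higher (1.42%) and 159 lower (0.874%) than ND, and HFGC had 138 higher (0.759%) and 60 lower (0.330%). These comparisons use the same ND arrays, so their values are given side by side and not as independent evidence.

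The calls rested on few arrays. Leaving out 1 array at a time gave 33, 5 and 13 genes higher and 19, 0 and 3 lower without HFDC 1, 2 and 3, and 12, 43 and 13 higher and 7, 26 and 13 lower without ND 1, 2 and 3. The arrays of HFCC and HFGC, which enter only the estimate of the spread, counted as well: a check added after the data were seen gave 10, 10 and 7 higher and 3, 3 and 3 lower without HFCC 1, 2 and 3, and 18, 20 and 29 higher and 10, 11 and 25 lower without HFGC 1, 2 and 3. Only Enho, Ces1g, Ugt2b37 and Osbpl3 kept their call in all 6 fits that left out an HFDC or ND array. Each of the other 41 genes lost it in at least 1, with an adjusted p of at most 0.186. With HFDC and ND fitted alone, without the arrays of HFCC and HFGC to estimate the spread, 3 genes were called higher and 1 lower.

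**Figure D1:**
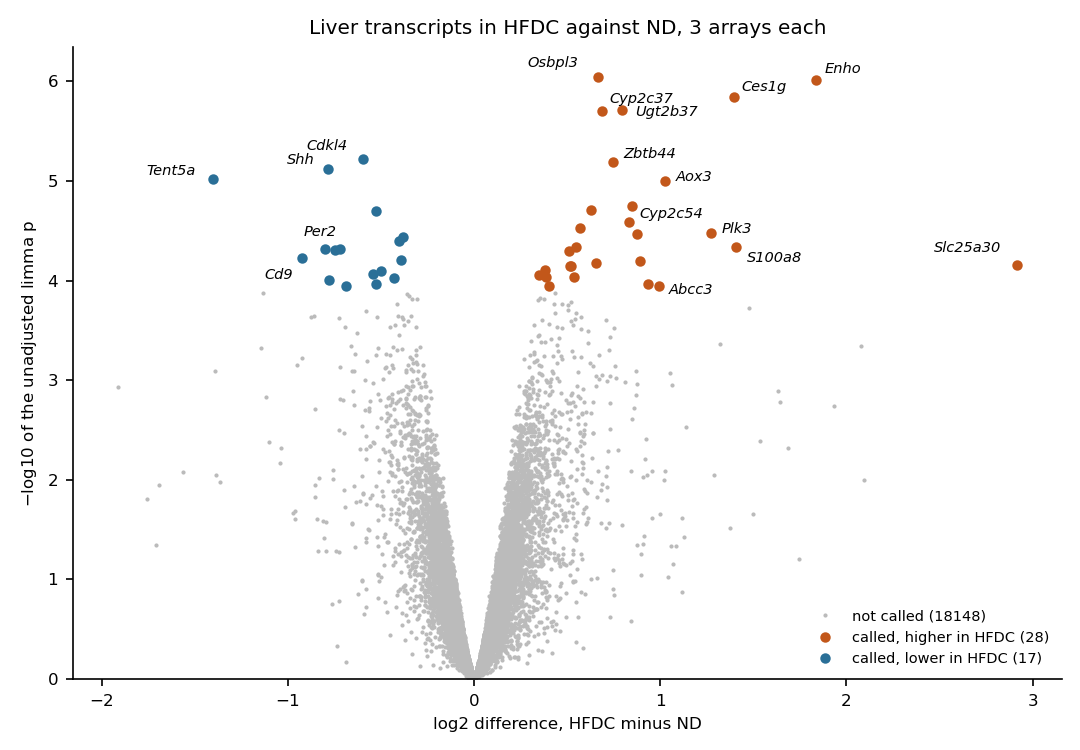
Log2 difference between HFDC and ND (x axis, HFDC minus ND) against -log10 of the unadjusted limma p (y axis) for 18193 genes, each a point, with the 28 genes called higher in HFDC in orange and the 17 called lower in blue. Slc25a30 lies farthest to the right at 2.92 and Tent5a is the called gene farthest to the left at -1.40.

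Enho encodes adropin, a secreted peptide tied to energy balance. It read 6.98, 6.70 and 6.92 on ND arrays 1 to 3 and 9.06, 8.38 and 8.66 on HFDC arrays 1 to 3 (log2 intensity). Every HFDC array stood above every ND array by more than the spread within either group, and the difference was 1.84 on the log2 scale (SE 0.21, adjusted p = 0.00725), 3.57-fold higher in HFDC. A second bright probe set of Enho differed by 2.08, while the probe sets at a mean log2 level of 5.53 and 5.22 differed by -0.02 and 0.11. Enho was also called in the other coffee groups, at 1.69 (adjusted p = 0.00216) for HFCC minus ND and 1.92 (adjusted p = 0.0017) for HFGC minus ND. HFDC minus HFCC was 0.15 (95% interval -0.30 to 0.60, adjusted p = 0.902), an interval that takes in 0.

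Slc25a30, a carrier of the inner mitochondrial membrane, was the gene with the largest difference and also one of the most variable. It read 7.48, 7.46 and 7.33 on ND arrays 1 to 3 and 9.61, 11.45 and 9.96 on HFDC arrays 1 to 3. The ND arrays lay within a narrow band, and HFDC 2 stood above the other HFDC arrays by over 1 log2 unit. The difference was 2.92 on the log2 scale (SE 0.50, adjusted p = 0.0402), 7.55-fold higher. The call was lost without HFDC 2, 3 or any ND array (adjusted p at most 0.148). Of the 4 further probe sets, a pair differed by 2.92 and 2.37 and the dimmer ones by 0.54 and 0.14. HFCC minus ND was 1.86 (adjusted p = 0.0764) and HFGC minus ND was 0.96 (adjusted p = 0.392), neither of which passed the test.

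Slc37a4, the transporter that carries glucose 6-phosphate into the ER for the last step of glucose release, fell in HFDC. It read 11.42, 11.37 and 11.47 on ND arrays 1 to 3 and 10.68, 10.67 and 10.75 on HFDC arrays 1 to 3, with SDs of 0.05 and 0.04. The groups were well apart, and the difference was -0.72 on the log2 scale (SE 0.12, adjusted p = 0.0363), 1.65-fold lower. The call was lost without HFDC 1, 2 or 3 and without ND 1 or 3 (adjusted p at most 0.159). HFCC minus ND was -0.28 (adjusted p = 0.237) and HFGC minus ND -0.38 (adjusted p = 0.154). In the list of gluconeogenesis, glycolysis and insulin signalling Slc37a4 was the 1 gene called of 24 measured, against 0.0934% of all genes called lower. The median difference of the list was -0.16 against 0.01 for all genes. Pck1, the enzyme that commits oxaloacetate to glucose synthesis, did not pass the test at 1.29, adjusted p = 0.182. Its ND arrays were uneven (8.48, 10.37 and 10.07), while the HFDC arrays read 10.91, 10.68 and 11.19. Ppp1r3b, which targets protein phosphatase 1 to glycogen, was close to the threshold at -0.86, adjusted p = 0.0595.

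Cebpb, a transcription factor of the acute phase and of gluconeogenesis, had the tightest arrays of the called genes named here. It read 10.22, 10.19 and 10.21 on ND arrays 1 to 3 and 10.86, 10.83 and 10.82 on HFDC arrays 1 to 3. All HFDC arrays were above all ND arrays, with SDs of 0.02 and 0.01, and the difference was 0.63 on the log2 scale (SE 0.09, adjusted p = 0.0283), 1.55-fold higher. Without HFDC 2, 3 or ND 1, 3 it was no longer called (adjusted p at most 0.124). The second probe set of Cebpb differed by 0.57. Cebpb was the 1 called gene of 22 measured ATF4 targets, against 0.154% of all genes called higher. The median of the list was 0.05. Atf4 itself was at 0.46, adjusted p = 0.0713. Nit2, a hydrolase of keto-acid amides, and Oga, which removes O-linked N-acetylglucosamine from proteins, also rose, by 0.65 (adjusted p = 0.0402) and 0.51 (adjusted p = 0.0363).

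Lipoprotein genes held 1 call, downwards, of 25 measured, against 0.0934% of all genes called lower. Tm6sf2, a membrane protein that helps load triglyceride onto very low density lipoprotein, read 9.15, 8.60 and 9.02 on ND arrays 1 to 3 and 8.36, 7.98 and 8.09 on HFDC arrays 1 to 3. The lowest ND array, ND 2, still lay above the highest HFDC array, HFDC 1. The difference was -0.78 on the log2 scale (SE 0.14, adjusted p = 0.0444), 1.72-fold lower, and was not called without HFDC 2, 3 or ND 1, 3 (adjusted p at most 0.178). The other 24 of 25 measured genes of the list did not pass the test, and its median was 0.00. They included Apoa4, a lipoprotein of fat absorption, at -1.04, adjusted p = 0.166, and Mttp, the transfer protein of lipoprotein assembly, at -0.28, adjusted p = 0.242.

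Of 24 measured genes in the list of CAR, PXR and their targets, 3 rose and 0 fell, against 0.154% and 0.0934% of all genes, and the median of the list was 0.15. The count fell to 1 without HFDC 1, ND 1 or ND 3, and to 0 without HFDC 2 and with HFDC and ND fitted alone. Cyp2c37 and Cyp2c54 are cytochromes P450 that oxidise drugs and fatty acids, and Abcc3 exports bile acids and glucuronides from the hepatocyte to blood. Cyp2c37 read 11.51, 11.80 and 11.63 on ND arrays 1 to 3 and 12.36, 12.36 and 12.28 on HFDC arrays 1 to 3. The lowest HFDC array was above the highest ND array by over 0.4, and the difference was 0.68 on the log2 scale (SE 0.08, adjusted p = 0.00725), 1.61-fold higher. Of the 6 fits without an HFDC or ND array, only that without HFDC 2 lost the call (adjusted p = 0.0599).

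Cyp2c54 read 11.36, 11.98 and 11.62 on ND arrays 1 to 3 and 12.53, 12.61 and 12.31 on HFDC arrays 1 to 3 and Abcc3 9.47, 9.88 and 8.95 on ND arrays 1 to 3 and 10.37, 10.60 and 10.31 on HFDC arrays 1 to 3. In both genes the ND arrays were more spread than the HFDC arrays, ND 2 being the highest, and the groups did not overlap. The differences were 0.83 on the log2 scale (SE 0.13, adjusted p = 0.0333) and 0.99 on the log2 scale (SE 0.18, adjusted p = 0.0461). Cyp2c54 was not called without HFDC 1, 2 or ND 1, 3 (adjusted p at most 0.148), and Abcc3 lost its call without any of the arrays except ND 2 (at most 0.186). Cyp2c50 did not pass the test, at 0.50, adjusted p = 0.0589. Probe sets of these near-identical Cyp2c genes may share sequence, so the split between them is uncertain. Of all 11 measured Cyp2c genes, a family picked after its values were seen, 2 rose (0.154% of all genes), and 5 were higher and 0 lower at an unadjusted p under 0.05 (8.27% and 6.21% of all genes).

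Cyp2b9, listed here both among CAR and PXR targets and among female-biased liver genes, was uneven in HFDC. It read 4.82, 4.90 and 5.04 on ND arrays 1 to 3 and 6.64, 8.03 and 5.31 on HFDC arrays 1 to 3. HFDC 3 was close to the ND arrays, HFDC 2 was far above them, and the difference of 1.74 (SE 0.85) did not pass the test (adjusted p = 0.371). Cyp3a13 went the other way, at -0.50, adjusted p = 0.119. In HFCC 8 and in HFGC 4 of the 24 list members were higher than ND (1.42% and 0.759% of all genes), with 0 lower in each. The median of HFDC minus HFCC over the list was -0.21, 21 of 24 members were below 0 and 0 were called.

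Ces1g and Ugt2b37 were 2 of the 4 genes called in all 6 fits without an HFDC or ND array. Ces1g, a carboxylesterase of lipid and drug esters, read 7.71, 8.37 and 7.84 on ND arrays 1 to 3 and 9.20, 9.65 and 9.24 on HFDC arrays 1 to 3. No ND array came near the lowest HFDC array, and the difference was 1.39 on the log2 scale (SE 0.16, adjusted p = 0.00725), 2.63-fold higher. Ces1g has close paralogs that its probe set may also detect. HFCC minus ND was 2.10 (adjusted p = 0.000209) and HFGC minus ND was 2.00 (adjusted p = 0.000467). HFDC lay below both, at -0.71 (95% interval -1.06 to -0.36, adjusted p = 0.171) for HFDC minus HFCC and -0.60 (95% interval -0.96 to -0.25, adjusted p = 0.407) for HFDC minus HFGC, neither past the threshold. In the list of sulfotransferases, glucuronosyltransferases and carboxylesterases Ces1g was the 1 call of 27 measured genes, against 0.154% of all genes called higher. In this list 10 were higher and 0 lower at an unadjusted p under 0.05 (8.27% and 6.21% of all genes), and the median was 0.17.

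Ugt2b37, a glucuronosyltransferase, read 5.51, 5.35 and 5.29 on ND arrays 1 to 3 and 6.22, 6.14 and 6.17 on HFDC arrays 1 to 3. The HFDC arrays agreed to within 0.08 and stood above all ND arrays, and the difference was 0.80 on the log2 scale (SE 0.10, adjusted p = 0.00725), 1.74-fold higher. It is 1 of 2 genes, with Enho, that passed the test in all 18 settings run in place of the reported one wherever they could be tested. The setting at an adjusted p under 0.10 could not lose a call, and fits without an HFCC or HFGC array were not among the 18. The level of Ugt2b37, near the median intensity of an array, was low, and related Ugt2b transcripts may bind the probe set.

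Aox3, an aldehyde oxidase that clears aldehydes and nitrogen heterocycles, read 11.26, 11.53 and 11.42 on ND arrays 1 to 3 and 12.18, 12.60 and 12.51 on HFDC arrays 1 to 3. HFDC 1 was the lowest of its group and still above every ND array. The difference was 1.03 on the log2 scale (SE 0.14, adjusted p = 0.0184), 2.04-fold higher, and was lost without HFDC 2, 3 or ND 1 (adjusted p at most 0.103). The related Aox1 was just outside the threshold at 0.71, adjusted p = 0.0596. Cyp1a2, which metabolises caffeine and is a target of the Ah receptor, read 11.33, 11.50 and 11.59 on ND arrays 1 to 3 and 11.85, 11.95 and 11.91 on HFDC arrays 1 to 3. All HFDC arrays were above the ND arrays, but the difference of 0.43 did not pass the test (adjusted p = 0.0542). Against ND it was 0.60 (adjusted p = 0.00433) in HFCC and 0.48 (adjusted p = 0.022) in HFGC. HFDC minus HFCC was -0.17 (95% interval -0.35 to 0.01, adjusted p = 0.616). None of the 22 measured NRF2 and antioxidant targets and none of the 21 glutathione S-transferases was called. At an unadjusted p under 0.05, 2 and 3 were higher (8.27% of all genes), and the medians were 0.10 and 0.04.

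Bile acid genes were measured in 30 of 30 members, of which Abcc3 alone was called, against 0.154% of all genes called higher. Cyp7a1, the rate-limiting enzyme of bile acid synthesis, read 11.97, 12.04 and 11.65 on ND arrays 1 to 3 and 12.03, 10.17 and 10.57 on HFDC arrays 1 to 3. HFDC 1 was as high as the ND arrays, while HFDC 2 and 3 were lower than all of them. The difference of -0.96 (SE 0.38) did not pass the test (adjusted p = 0.261).

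**Figure D2:**
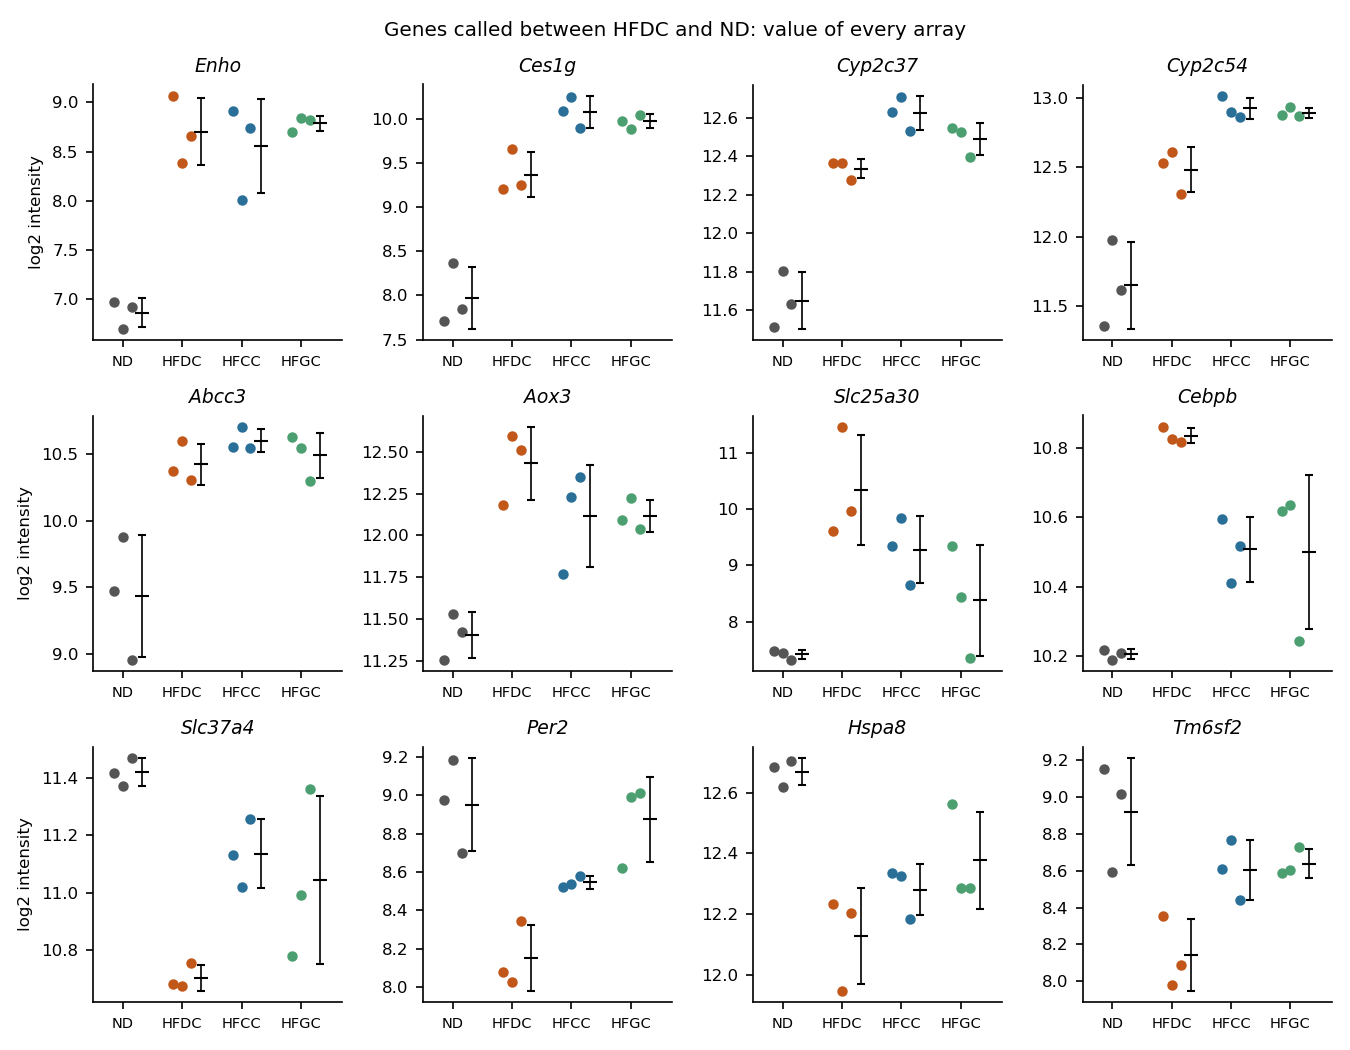
Log2 intensity (y axis) of 12 genes called between HFDC and ND in each of the 12 arrays of ND, HFDC, HFCC and HFGC, with the mean and SD (n = 3) beside the points of each group. In every panel the 3 HFDC points lie on one side of the 3 ND points, by a log2 difference of 1.84 in Enho and of -0.54 in Hspa8.

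Per2, a repressor of the circadian clock, fell. It read 8.97, 9.18 and 8.70 on ND arrays 1 to 3 and 8.08, 8.03 and 8.35 on HFDC arrays 1 to 3. The highest HFDC array, HFDC 3, lay below the lowest ND array, ND 3, and the difference was -0.80 on the log2 scale (SE 0.13, adjusted p = 0.0363), 1.74-fold lower. The call was lost without HFDC 1, 2 or ND 1, 2 (adjusted p at most 0.159), and the other probe sets of Per2 differed by -0.40 and -0.10. Per2 was the 1 call of 21 measured clock genes, against 0.0934% of all genes called lower. The median of the list was -0.02. Dbp and Nr1d2, which the clock drives strongly, did not pass the test (0.43, adjusted p = 0.676, and 0.43, adjusted p = 0.368). HFGC minus ND for Per2 was -0.08 (adjusted p = 0.838), and HFDC minus HFGC was -0.72 (95% interval -1.01 to -0.44, adjusted p = 0.16). No source used here gave the hour of sacrifice per animal.

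The cytosolic chaperone genes Hspa8 and Dnaja4 fell. Hspa8, the constitutive Hsc70 chaperone, read 12.68, 12.62 and 12.70 on ND arrays 1 to 3 and 12.23, 11.95 and 12.20 on HFDC arrays 1 to 3. The ND arrays lay within 0.09 of each other and above all HFDC arrays, and the difference was -0.54 on the log2 scale (SE 0.09, adjusted p = 0.044), 1.45-fold lower. The other probe sets of Hspa8 differed by -0.33, -0.28 and -0.25. Dnaja4, a co-chaperone of Hsp70, read 7.26, 6.68 and 6.75 on ND arrays 1 to 3 and 6.15, 6.20 and 6.11 on HFDC arrays 1 to 3. The HFDC arrays were nearly level, ND 1 was the highest array, and the difference was -0.75 on the log2 scale (SE 0.12, adjusted p = 0.0363), 1.68-fold lower. The other probe sets of Dnaja4 differed by -0.63 and -0.13. Hspa8 was not called without HFDC 2, 3 or any ND array (adjusted p at most 0.169), and Dnaja4 was not called without any one HFDC array (at most 0.148). Both calls were also lost with probe sets averaged per gene and with HFDC and ND fitted alone. Over all 18 settings the adjusted p of Hspa8 by limma reached 0.449.

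These calls led to the whole family of heat shock proteins and DnaJ co-chaperones being examined after the values of Hspa8 and Dnaja4 were seen. Of 72 measured members 0 rose and 2 fell (0.154% and 0.0934% of all genes), 8 were higher and 14 lower at an unadjusted p under 0.05 (8.27% and 6.21% of all genes), and the median was -0.06, with 29 members above 0. The 14 lower members included the heat-inducible Hspa1a at -1.71, adjusted p = 0.333, Hspa1b at -1.39, adjusted p = 0.183, Dnajb1 at -0.76, adjusted p = 0.186 and Hspb1 at -0.65, adjusted p = 0.273. Hspa1b read 13.42, 12.68 and 12.51 on ND arrays 1 to 3 and 12.44, 11.19 and 10.82 on HFDC arrays 1 to 3. ND 1 was the highest and HFDC 3 the lowest array, and Hspa1a and Hspa1b are near-identical copies that the probe sets may not separate. Members higher at an unadjusted p under 0.05 included chaperones of the ER such as Hspa13 and Dnajb9.

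Heat shock genes are driven by HSF1, which binds inverted repeats of GAA. The 250 bases before the start of Hspb1 and of Dnaja4 are shown because both hold the letters GAANNTTC more than once. They were taken from the RefSeq promoters of GRCm38.p6, Hspb1 at chr5:135887669-135887918 on the plus strand and Dnaja4 at chr9:54699309-54699558 on the plus strand, and capitals mark each GAANNTTC.
Hspb1: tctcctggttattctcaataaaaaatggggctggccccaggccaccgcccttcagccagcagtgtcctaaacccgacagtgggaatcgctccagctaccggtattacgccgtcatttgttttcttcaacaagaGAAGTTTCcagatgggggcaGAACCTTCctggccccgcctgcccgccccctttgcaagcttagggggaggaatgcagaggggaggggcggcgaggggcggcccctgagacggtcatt
Dnaja4: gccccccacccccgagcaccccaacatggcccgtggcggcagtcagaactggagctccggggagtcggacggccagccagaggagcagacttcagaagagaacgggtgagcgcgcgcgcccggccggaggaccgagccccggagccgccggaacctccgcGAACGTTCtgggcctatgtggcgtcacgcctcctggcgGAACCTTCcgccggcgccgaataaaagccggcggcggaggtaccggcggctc
Both genes had 2 matches, at positions 134 and 154 from the 5 prime end in Hspb1 and at 161 and 199 in Dnaja4, which has 2 starts in the table, the other with no match. The letters read the same on both strands. They occur in 6.69% of 32851 promoters and in 7.73% of 27025 genes, and in 6 of the 12 matched genes among the 14 lower heat shock and DnaJ genes. The other heat shock and DnaJ genes were not counted apart, so a link between the letters and the decrease was not tested. A match in these letters is a description of the sequence and not of binding.

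S100a8, a calcium-binding protein of neutrophils and monocytes, read 4.82, 4.37 and 4.51 on ND arrays 1 to 3 and 5.64, 5.81 and 6.48 on HFDC arrays 1 to 3. HFDC 3 was the highest array, all HFDC arrays were above all ND arrays, and the difference was 1.41 on the log2 scale (SE 0.23, adjusted p = 0.0363), 2.66-fold higher. The call was lost without HFDC 2, 3 or any ND array (adjusted p at most 0.133). Its partner S100a9 did not pass the test, at 0.64, adjusted p = 0.133. Of 5 measured monocyte and neutrophil markers 1 rose, S100a8 itself, against 0.154% of all genes. The summed intensity of the 5 was 316 to 370 in HFDC and 210 to 259 in ND. The chemokine receptor Ccr2 was at 0.17, adjusted p = 0.486. The part that such cells have in the difference was not tested.

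Cd9, a tetraspanin of many cell surfaces, read 8.99, 8.30 and 8.50 on ND arrays 1 to 3 and 7.80, 7.63 and 7.59 on HFDC arrays 1 to 3. ND 1 was the highest array and HFDC 1 the highest of its group, and the groups did not overlap. The difference was -0.92 on the log2 scale (SE 0.16, adjusted p = 0.0402), 1.9-fold lower, and was lost without HFDC 2, 3 or ND 1, 3 (adjusted p at most 0.159). Cd9 was the 1 call of 33 measured macrophage and inflammation genes, against 0.0934% of all genes called lower. The median of the list was 0.13. Trem2, a receptor of lipid-laden macrophages, was at 0.35, adjusted p = 0.101. The interferon-inducible Ifitm2 fell by 0.38 (SE 0.06, adjusted p = 0.0363) and the antiviral helicase Znfx1 by 0.39 (SE 0.07, adjusted p = 0.0402). Ifitm2 read 11.27, 11.21 and 11.18 on ND arrays 1 to 3 and 10.81, 10.89 and 10.81 on HFDC arrays 1 to 3, with no overlap. None of the 30 measured genes in the list of interferon-stimulated genes was called, and the median was -0.03. At an unadjusted p under 0.05, 1 was higher and 3 were lower (8.27% and 6.21% of all genes).

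Stellate cell and fibroblast markers had a median of 0.35 and 0 calls, with 5 of 9 higher and 0 lower at an unadjusted p under 0.05 (8.27% and 6.21% of all genes). Their summed intensity was 5040 to 6890 in HFDC and 4617 to 5161 in ND. In the wider list of collagen, stellate cell and cytoskeletal injury genes, 13 of 33 were higher at an unadjusted p under 0.05, against 8.27% of all genes, and 0 were lower or called. The share of such cells in the livers was not tested.

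Tent5a, a poly(A) polymerase, was the called gene with the largest decrease. It read 8.84, 8.25 and 8.04 on ND arrays 1 to 3 and 7.34, 6.90 and 6.69 on HFDC arrays 1 to 3. Each ND array was above each HFDC array, with ND 1 the highest, and the difference was -1.40 on the log2 scale (SE 0.20, adjusted p = 0.0184), 2.64-fold lower. Of the 6 fits without an HFDC or ND array, those without HFDC 2 or 3 lost the call (adjusted p at most 0.0995). The call was also lost with HFDC and ND fitted alone. Shh, the hedgehog ligand, fell by 0.78 (adjusted p = 0.017), but its other probe set differed by 0.22. The cell cycle and stress kinase Plk3 rose by 1.27 (adjusted p = 0.0363), S1pr3, a receptor of sphingosine 1-phosphate, by 0.93 (adjusted p = 0.0461), and the elastase gene Cela1 by 0.89 (adjusted p = 0.0402). Fam25c, Fam126b and the zinc finger gene Zbtb44 rose by 0.85, 0.88 and 0.75. Kank2, an adaptor at cell adhesions, fell by 0.69, Umps, which completes the synthesis of UMP, by 0.43, and the kinase gene Cdkl4 by 0.60. Olfr49 and Prl7a1, an olfactory receptor and a placental prolactin, fell by 0.40 and 0.53 at log2 levels of 4.30 to 4.88 and 2.76 to 3.50, well under the array median, and the other probe set of Cdkl4 differed by -0.02. Among the 13 called genes with smaller increases, named here after their values were seen, were Wnt4 at 0.39, the vitamin C transporter gene Slc23a2 at 0.52 and the lipid transfer gene Osbpl3 at 0.67. The other probe sets of some of these genes differed less, by 0.17 in Wnt4, by 0.07 in Slc23a2 and by 0.25 and 0.22 in S1pr3.

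**Figure D3:**
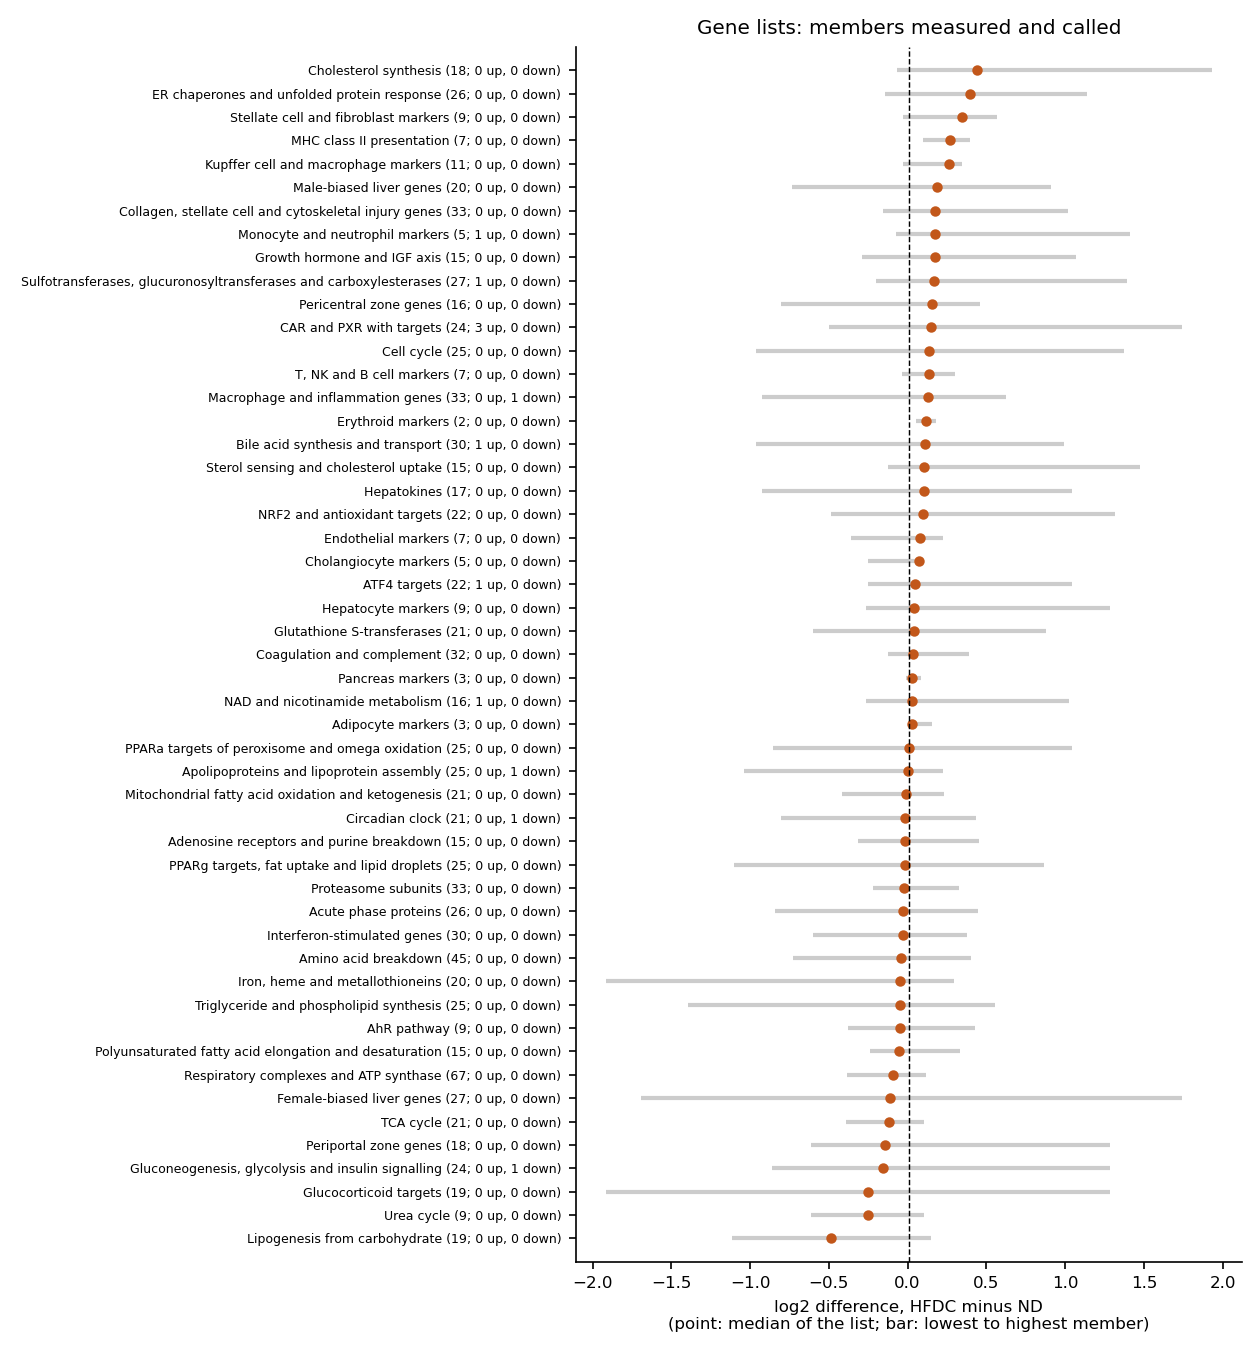
Median log2 difference between HFDC and ND (points, x axis) and the range from lowest to highest member (bars) for 51 gene lists, with the number of members measured and called higher (up) or lower (down) in brackets and the median of all genes, 0.01, as the dashed line. Cholesterol synthesis lies at the top at 0.44 and lipogenesis from carbohydrate at the bottom at -0.48, both with 0 members called.

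Pathway lists were described by their counts and medians. The 51 lists hold 916 measured genes, of which 7 rose and 4 fell, against 0.154% and 0.0934% of all genes. The lists were chosen with earlier results of these data known. In 41 lists no member was called. A list with no call can still have many members on one side, as the plot of list medians shows, and 5 lists are described for that reason.

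Cholesterol synthesis had the highest median, 0.44, with 16 of 18 measured members above 0 but 0 called by limma; 8 were higher and 0 lower at an unadjusted p under 0.05, against 8.27% and 6.21% of all genes. The 3 HFDC arrays were far apart. The mean log2 intensity of the 18 genes was 9.56, 8.45 and 8.29 in HFDC 1 to 3, and 8.11, 8.02 and 7.99 in ND 1 to 3. It was 10.45, 9.82 and 10.34 in HFCC and 9.51, 9.94 and 10.35 in HFGC, so HFDC 1 passed the lowest HFGC array but stayed under every HFCC array, and HFDC 2 and 3 stayed under the arrays of both groups.

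The same order held in single genes. Msmo1, a sterol C4-methyl oxidase, read 8.06, 8.03 and 7.93 on ND arrays 1 to 3 and 11.32, 9.30 and 9.19 on HFDC arrays 1 to 3. HFDC 1 was 2 log2 units above HFDC 2 and 3, which were still above all ND arrays, and the difference of 1.93 (SE 0.49) did not pass the test (adjusted p = 0.108). Idi1, which makes the isoprenoid building block, and Cyp51, which demethylates lanosterol, were at 1.69, adjusted p = 0.147 and 1.65, adjusted p = 0.106. Sqle, squalene epoxidase, chosen after its values were seen, read 6.42, 6.01 and 6.44 on ND arrays 1 to 3 and 9.54, 6.82 and 5.86 on HFDC arrays 1 to 3. HFDC 1 was the highest and HFDC 3 the lowest of its 6 arrays. Hmgcs1, the first committed enzyme and likewise chosen afterwards, read 10.40, 9.72 and 9.96 on ND arrays 1 to 3 and 12.26, 11.11 and 10.07 on HFDC arrays 1 to 3.

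HFDC 1 also had the highest 3 prime minus 5 prime difference of the HFDC arrays, 1.06 against 0.864 and 0.860. Among the other coffee groups, HFCC 1 had the highest value of its group, 1.07, and the highest mean of the cholesterol synthesis genes, 10.45. In HFGC the lowest value, 0.697, and the highest mean, 10.35, were both those of HFGC 3. On the second principal component of all genes HFDC 1 scored -1.20, where HFDC 2 and 3 scored -13.7 and -16.4. Whether RNA integrity has a part in the difference between the HFDC arrays was not tested.

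**Figure D4:**
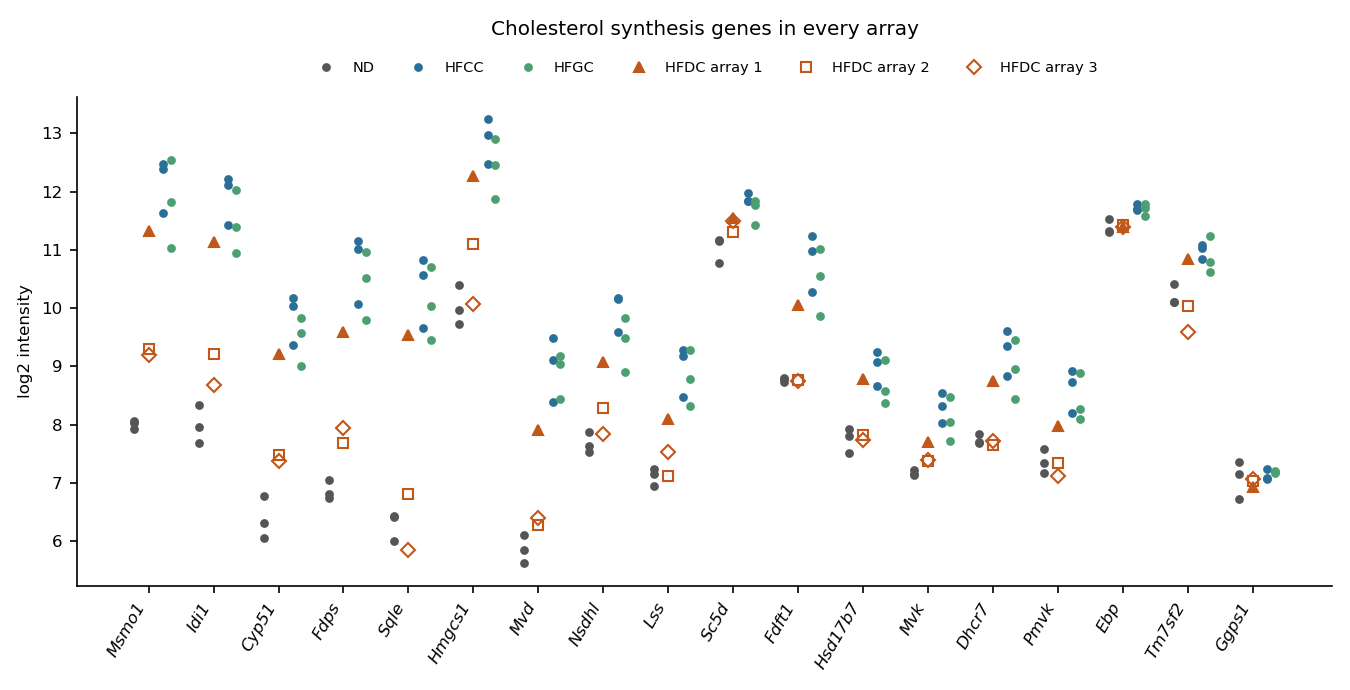
Log2 intensity (y axis) of the 18 measured cholesterol synthesis genes (x axis) in each array of ND, HFCC and HFGC (points) and in HFDC arrays 1, 2 and 3 (orange triangle, square and diamond). HFDC 1 lies well above HFDC 2 and 3 in most genes, as in Msmo1 at 11.32 against 9.30 and 9.19.

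Against HFCC, all 18 genes were lower in HFDC, with a median of -1.48, and 17 had an unadjusted p under 0.05, against 8.23% of all genes. None was called (lowest adjusted p = 0.0835). Against HFGC, all 18 were lower with a median of -1.11, 16 had an unadjusted p under 0.05, against 7.04% of all genes, and 0 were called (lowest adjusted p = 0.174). Without HFDC 1, a setting looked at for this list after its values were seen, 14 of the 18 were called lower than in HFCC (29 of all genes, 0.159%) and 6 lower than in HFGC (10 of all genes, 0.0550%), and 0 were called when any other single array was left out. Against ND, 0 were called in each of these fits. In the fit of all 12 arrays 16 of the 18 were higher in HFCC than in ND and 12 were higher in HFGC than in ND, against 1.42% and 0.759% of all genes.

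Genes of sterol synthesis are driven by SREBP-2, which acts together with NF-Y, a factor that binds CCAAT. The 250 bases before the start of Msmo1, the member with the largest difference, and of Hmgcs1, the 1 member with the sterol element TCACNCCAC, are shown from the RefSeq promoters of GRCm38.p6. Msmo1 is at chr8:64733579-64733828 on the minus strand and Hmgcs1 at chr13:119690101-119690350 on the plus strand. Capitals mark CCAAT on either strand (ATTGG where it lies on the other strand) and TCACNCCAC.
Msmo1: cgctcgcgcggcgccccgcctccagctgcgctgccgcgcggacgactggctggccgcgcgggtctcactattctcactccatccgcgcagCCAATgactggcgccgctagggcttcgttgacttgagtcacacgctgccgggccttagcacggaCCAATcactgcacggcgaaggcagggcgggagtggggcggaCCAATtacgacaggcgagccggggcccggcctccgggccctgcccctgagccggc
Hmgcs1: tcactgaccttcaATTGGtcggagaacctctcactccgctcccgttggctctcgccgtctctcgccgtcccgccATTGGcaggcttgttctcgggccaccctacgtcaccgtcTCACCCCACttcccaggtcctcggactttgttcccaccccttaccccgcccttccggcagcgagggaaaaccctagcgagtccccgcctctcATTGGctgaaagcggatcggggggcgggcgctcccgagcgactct
Msmo1 held CCAAT at positions 91, 155 and 196 from the 5 prime end. Hmgcs1 held it at 14, 75 and 206, and the sterol element at 114. CCAAT was present in at least 1 promoter of all 15 matched members of the 18, in 83.3% of their 18 promoters and in 33.8% of 32851 promoters of all genes. TCACNCCAC was present in 1 of the 15 and in 1.05% of all promoters. In the 35 matched genes of the 45 called between HFDC and ND, CCAAT was present in 37.1%, against 37.5% of all 27025 genes.

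The list of sterol sensing and cholesterol uptake had 0 calls of 15 measured genes and a median of 0.10. Insig1, which retains the SREBP complex in the ER, read 9.06, 9.08 and 9.01 on ND arrays 1 to 3 and 11.07, 9.81 and 10.71 on HFDC arrays 1 to 3. All HFDC arrays were above the narrow ND band, HFDC 2 least, and the difference of 1.48 (SE 0.28) missed the threshold (adjusted p = 0.0566). Stard4, a cholesterol carrier, was at 0.65, adjusted p = 0.0966.

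ER chaperones and unfolded protein response genes had a median of 0.40, and 25 of 26 measured members lay above 0. By limma 0 were called, 20 were higher and 0 lower at an unadjusted p under 0.05, against 8.27% and 6.21% of all genes. In 17 of the 26 the HFDC arrays lay above all ND arrays, against 10.2% of all genes. Sdf2l1, a partner of the ER chaperone network, read 8.45, 8.64 and 9.54 on ND arrays 1 to 3 and 9.69, 9.82 and 10.54 on HFDC arrays 1 to 3. ND 3 came close to HFDC 1, and the difference was 1.14, adjusted p = 0.128. Creld2, an ER stress protein, was at 0.71, adjusted p = 0.2 and Derl3, which extracts misfolded proteins from the ER, at 0.63, adjusted p = 0.16. In HFCC 8 and in HFGC 6 of the list were higher than ND (1.42% and 0.759% of all genes). HFDC minus HFCC had a median of -0.10 over the list and HFDC minus HFGC -0.10, with 0 called in each and 4 of 26 at an unadjusted p under 0.05 in each (8.23% and 7.04% of all genes).

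Lipogenesis from carbohydrate was the lowest list, with a median of -0.48 and 17 of 19 members below 0. None was called; 8 were lower and 0 higher at an unadjusted p under 0.05, against 6.21% and 8.27% of all genes. Acacb, the acetyl-CoA carboxylase of the mitochondrial surface, read 8.10, 7.58 and 7.90 on ND arrays 1 to 3 and 7.55, 6.43 and 6.24 on HFDC arrays 1 to 3. HFDC 1 was close to the lowest ND array and HFDC 2 and 3 were more than 1 log2 unit below, and the difference was -1.12, adjusted p = 0.103. Elovl6, which lengthens palmitate, was at -0.95, adjusted p = 0.0864 and Mid1ip1, an activator of acetyl-CoA carboxylase, at -0.97, adjusted p = 0.248. Fatty acid synthase, Fasn, chosen after its values were seen, read 11.05, 9.64 and 9.48 on ND arrays 1 to 3 and 9.65, 8.83 and 9.18 on HFDC arrays 1 to 3, where ND 1 was the highest array and the groups overlapped.

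Glucocorticoid targets had a median of -0.25 with 0 of 19 called, 5 higher and 4 lower at an unadjusted p under 0.05 (8.27% and 6.21% of all genes). The metallothionein genes Mt1 and Mt2, which bind zinc, were at -1.91, adjusted p = 0.0966 and -1.56, adjusted p = 0.18. Mt1 read 11.57, 10.86 and 10.16 on ND arrays 1 to 3 and 9.24, 8.60 and 9.00 on HFDC arrays 1 to 3. The groups did not overlap, but the ND arrays spanned more than 1 log2 unit.

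Of 67 measured genes of the respiratory complexes and ATP synthase 58 were below 0, with a median of -0.09 and a lowest difference of -0.38. None was called, 18 were lower and 0 higher at an unadjusted p under 0.05 (6.21% and 8.27% of all genes), and in 31 the HFDC arrays lay below all ND arrays (7.84% of all genes). The TCA cycle had a median of -0.12 over 21 genes. Of these, 3 were lower and 0 higher at an unadjusted p under 0.05 (6.21% and 8.27% of all genes), and 0 were called. The urea cycle had a median of -0.25, with 7 of 9 members below 0. Of the 9, 4 were lower and 0 higher at an unadjusted p under 0.05 (6.21% and 8.27% of all genes), and 0 were called. Asl, argininosuccinate lyase, was at -0.61, adjusted p = 0.224, Arg1, arginase, at -0.41, adjusted p = 0.166 and Nags, which makes the activator of the cycle, at -0.33, adjusted p = 0.0949.

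Fat oxidation and storage lists had medians near 0 and no call. Of all genes, 8.27% were higher and 6.21% lower at an unadjusted p under 0.05. Mitochondrial fatty acid oxidation and ketogenesis was at -0.01 over 21 genes, with 0 at an unadjusted p under 0.05 in either direction. Targets of PPARa were at 0.01 over 25 genes (2 higher and 2 lower at an unadjusted p under 0.05), targets of PPARg and lipid droplet genes at -0.02 over 25 (3 higher, 2 lower), and triglyceride and phospholipid synthesis at -0.05 over 25 (1 higher, 3 lower). Pparg, the nuclear receptor of fat storage, read 6.59, 6.66 and 6.08 on ND arrays 1 to 3 and 6.99, 7.35 and 6.95 on HFDC arrays 1 to 3. All HFDC arrays were higher, and the difference of 0.66 missed the threshold (adjusted p = 0.0917). The lipid droplet gene Cidec lay the other way at -1.10, adjusted p = 0.14, and Cyp4a31, a fatty acid omega-hydroxylase, was at -0.85, adjusted p = 0.112.

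Differences between the coffee groups were tested directly, since ND cancels in them. Between HFDC and HFCC 4 genes were higher (0.0220% of 18193) and 4 lower (0.0220%) in HFDC. Between HFDC and HFGC 2 were higher (0.0110%) and 1 was lower (0.00550%). Of the genes called between HFDC and ND, Osbpl3 and Ugt2b37 differed in both of these comparisons and Fbxo21 in the one with HFCC. The count of 8 against HFCC became 2 without HFCC 1, 1 without HFCC 2, 2 without HFDC 3, 4 without ND 2 and 41 without HFDC 1. The fits without an array of a group outside the comparison were added after the data were seen. The count of 3 against HFGC became 0 without HFDC 3, HFGC 1 or HFGC 2, 1 without ND 2, 5 without HFCC 3, 7 without ND 1 and 15 without HFDC 1. With only the groups compared in the fit, both counts were 0 by limma (1890 and 1479 genes at an unadjusted p under 0.05).

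Osbpl3, an oxysterol-binding lipid transfer protein, read between 4.84 and 5.12 on the ND arrays and 5.67, 5.57 and 5.72 on HFDC arrays 1 to 3. The HFCC arrays read 5.10, 5.08 and 5.05 and the HFGC arrays 5.01, 4.96 and 5.01. All 3 HFDC arrays were above the 9 others, and the differences were 0.58 (SE 0.07, adjusted p = 0.0201) from HFCC, 0.66 (SE 0.07, adjusted p = 0.0191) from HFGC and 0.67 on the log2 scale (SE 0.07, adjusted p = 0.00725) from ND. Of its other probe sets 1 differed from ND by 0.90 and a dim one by -0.14. These differences share the HFDC arrays. Ugt2b37 read 5.71, 5.32 and 5.49 in HFCC and 5.43, 5.52 and 5.35 in HFGC, with differences of 0.67 (SE 0.10, adjusted p = 0.0286) and 0.74 (SE 0.10, adjusted p = 0.0338). Fbxo21, a ubiquitin ligase subunit named after its values were seen, read 9.35, 9.29 and 9.13 on ND arrays 1 to 3 and 9.77, 9.89 and 9.81 on HFDC arrays 1 to 3. HFCC read 9.24, 9.00 and 9.23, and the difference was 0.67 (SE 0.09, adjusted p = 0.0216). Its second probe set differed by 0.12 between HFDC and ND, which limma did not call at an unadjusted p under 0.05, and the call against ND was lost with probe sets averaged and without HFDC 2, HFDC 3 or ND 3.

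Pnpla7, a lysophospholipase, had HFDC and ND arrays that overlapped. It read 11.25, 11.25 and 11.09 on ND arrays 1 to 3 and 11.23, 11.01 and 11.06 on HFDC arrays 1 to 3, 10.10, 10.09 and 10.39 in HFCC and 10.44, 10.53 and 10.47 in HFGC. Between HFDC and ND the difference was -0.10 (95% interval -0.29 to 0.10, adjusted p = 0.672), and both groups lay above all arrays of the other coffee groups. HFDC minus HFCC was 0.91 (SE 0.09, adjusted p = 0.00475) and HFDC minus HFGC 0.62 (SE 0.09, adjusted p = 0.0538), the second just outside the threshold.

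Tmem41b, an ER protein of lipid scrambling, read 8.23, 8.39 and 8.24 on ND arrays 1 to 3 and 8.79, 8.47 and 8.64 on HFDC arrays 1 to 3. HFCC read 9.45, 9.31 and 9.32 and HFGC 9.26, 9.46 and 9.26, so HFDC lay between ND and both. HFDC minus HFCC was -0.72 (SE 0.09, adjusted p = 0.0201), HFDC minus HFGC was -0.69 (SE 0.09, adjusted p = 0.0338), and HFDC minus ND was 0.35, adjusted p = 0.116. Kctd7, a potassium channel tetramerisation domain protein, and Ildr2, a membrane protein of the ER, were lower in HFDC than in HFCC by -0.84 (SE 0.11, adjusted p = 0.0201) and -1.11 (SE 0.16, adjusted p = 0.0286). Their HFDC arrays read 4.93, 4.92 and 5.03 and 7.02, 7.13 and 7.32, against 4.65, 4.83 and 4.52 and 6.74, 6.79 and 7.22 in ND. Prxl2b was lower by -0.50 (SE 0.07, adjusted p = 0.0369).

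**Figure D5:**
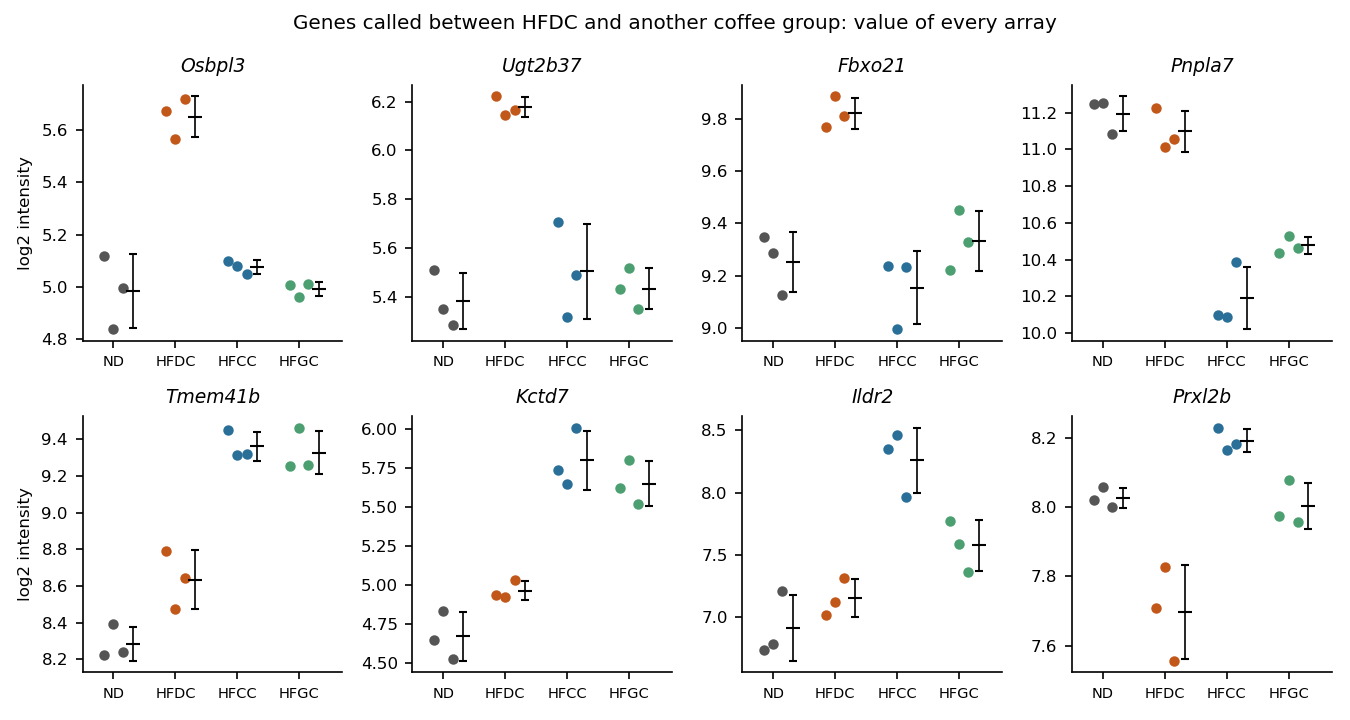
Log2 intensity (y axis) of the 8 genes called between HFDC and HFCC, 3 of them also called between HFDC and HFGC, in each of 12 arrays, with the mean and SD (n = 3) beside the points of each group. HFDC stands above the other 3 groups in Osbpl3 and Ugt2b37, and Pnpla7 has HFDC and ND together above HFCC and HFGC.

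Across all genes HFDC lay between ND and the other coffee groups on the first principal component, which held 26.95% of the variance of the 12 arrays. The ND arrays scored -22.2, -13.2 and -17.97 and the HFDC arrays -0.10, -0.64 and -0.44. HFCC arrays scored between 10.3 and 11.8 and HFGC arrays between 4.95 and 8.60. The scores describe these arrays and carry no test.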

How the data were processed

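Liver RNA was hybridised to 1 array per mouse, and the authors deposited linear intensities after RMA, as the submitters' processing notes name it (background correction, normalization between arrays and summary per probe set). The version of RMA was not given in the sources used here. Columns were mapped by label, with 0 unmapped. Of 45101 probe sets 34945 had 1 gene symbol in the platform annotation, 932 several and 9160 none or no entry, beside 64 controls, and 34741 matched a RefSeq gene record of GRCm38.p6. Each of 18193 genes was represented by the brightest probe set over the 12 arrays, with _x_at sets used last. R 4.3.3 and limma 3.58.1 fitted group means of log2 values for ND, HFCC, HFDC and HFGC (8 residual degrees of freedom), tested on simulated data first. The 3 arrays per group limit precision. The p-values set each difference in group means against a spread between mice that was pooled over the 12 arrays and moderated across genes. Calls needed a Benjamini-Hochberg adjusted p under 0.05. Named genes are the 15 with the largest differences each way among called genes that do not overlap, without clone symbols, up to 4 called and 3 uncalled members per list, and the 5 largest between coffee groups, beside others said to be chosen after their values were seen. Members and lists were chosen with earlier results of these data known. The alternatives were another choice of probe set, filter, normalization, offset, set of arrays, replicate block, moderation, threshold and an RNA quality covariate, and leaving out each array.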

Additional observations from a re-analysis of the deposited data

Results flagged for a closer look

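Each of these 11 differences is a test of whether HFDC stood as far from ND as another coffee group did, and each passed limma's test at an adjusted p under 0.05. Higher in HFDC than in HFCC were Pnpla7 by 0.91 (adjusted p = 0.00475), Ugt2b37 by 0.67 (0.0286), Fbxo21 by 0.67 (0.0216) and Osbpl3 by 0.58 (0.0201), all on the log2 scale. Lower in HFDC than in HFCC were Ildr2 at -1.11 (0.0286), Kctd7 at -0.84 (0.0201), Tmem41b at -0.72 (0.0201) and Prxl2b at -0.50 (0.0369). Against HFGC, Ugt2b37 was higher by 0.74 (0.0338), Osbpl3 was higher by 0.66 (0.0191) and Tmem41b stood at -0.69 (0.0338). The HFDC arrays enter all 11, and the counts of 8 and 3 moved to between 1 and 41 and between 0 and 15 when 1 array was left out.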

How the results depend on the processing

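No gene named in the report changed sign in its difference between HFDC and ND in any of the 18 settings. That difference could change only with probe sets averaged, cyclic loess, the offset, the RNA quality covariate or an HFDC or ND array left out. Single other probe sets did differ in sign, as in Shh (0.22 against -0.78) and Osbpl3 (-0.14 against 0.67). Of the 45 called genes 2, Enho and Ugt2b37, kept their call in each setting where they were tested. The setting at an adjusted p under 0.10 could not lose a call. The other counts moved as follows, in the order genes higher and genes lower than ND, then genes called against HFCC and against HFGC, with 28, 17, 8 and 3 as reported. Averaging probe sets moved the last pair to 1 and 5. Testing every probe set gave 44 lower, then 5 and 1. Brighter genes alone gave 5 and 0 (909 at an unadjusted p under 0.05 by limma), cyclic loess 13 and 7, and the offset 1 against HFGC. Fitting only the groups compared gave 3, 1, 0 and 0, with 1890 and 1479 genes at an unadjusted p under 0.05 in the last pair, and 4 of the 45 genes kept. All 15 arrays gave 55, 40, 17 and 7. Trend and robust moderation gave 9 against HFGC. An adjusted p under 0.10 gave 128, 94, 26 and 11, and a minimum of 1.5-fold gave 18 and 9. The RNA quality covariate gave 15 and 5 between coffee groups. Leaving out 1 array gave 5 to 43 higher, 0 to 26 lower (849 at an unadjusted p under 0.05 where 0 were called, without HFDC 2), 1 to 41 against HFCC (41 without HFDC 1) and 0 to 15 against HFGC. The cause of these changes was not tested.

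The replicate number of the labels as a block gave 41 higher, 28 lower, 4 against HFCC and 2 against HFGC, with 39 of the 45 genes kept. The deviations of same-numbered HFDC and ND arrays correlated at 0.12, 0.13 and -0.03, so the number was not taken to pair mice. With 3 arrays a group, only large or very even differences could pass, and the smallest difference called between HFDC and ND was 0.35 on the log2 scale (Napsa).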
